A study of Mus musculus with 6 samples.

Results

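Activated Egr3 and Cd83 B cells are splenic B cells that carried UMIs (unique molecular identifiers, one per captured RNA molecule) of at least 3 of the 5 genes Egr3, Egr1, Cd83, Il4i1 and Nfkbid. A B cell was a barcode with at least 2 UMIs of Cd79a, a subunit of the B cell receptor, and none of Cd3e, Cd3d, Csf1r or Cd93, which mark T cells, macrophages and immature B cells. The gate found 799 activated cells among 15008 gated B cells and 31457 cells in all. The cells were thus chosen by the UMIs of these genes, whose levels in them are given as a description.

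B cells that meet antigen signal through the B cell receptor to calcium, ERK and NF-kB, and within the first hours transcribe immediate early genes such as the EGR zinc finger factors and the orphan nuclear receptor Nr4a1. NF-kB then raises survival genes, costimulatory molecules and its own inhibitors, while Myc drives growth before division. In the spleen such cells have been described among follicular and marginal zone B cells, and the same early genes can also be induced while a tissue is being dissociated.

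The libraries came from whole spleens of wild-type C57BL/6 mice that entered the study at 6 weeks of age and stayed on one of 2 diets for 7 weeks. The diets are labelled ND and MCDHFD, and the labels spell out neither name but place the spleens among models of MASH, the fatty liver disease with inflammation. Each diet had 3 libraries of splenocytes, made with droplet single-cell chemistry, and whether each one was a separate animal is not in the labels, so p-values measure the spread between libraries, which may be technical. The libraries stood apart by how they were deposited. ND replicate 2 and MCDHFD replicate 3 have filtered barcode lists and a median mitochondrial share of 0.571% and 1.68% of UMIs, and the other 4 have unfiltered lists and medians of 3.73% to 3.96%. Kept cells had a median of 4469 to 6202 UMIs per library, and any pair of libraries shared at most 18 kept barcodes.

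The gate genes cover several layers of the early response. Egr3 (chr14:70077203-70082614 on GRCm38, plus strand) and Egr1 encode zinc finger transcription factors. Cd83 (chr13:43784775-43803132) encodes a surface protein that stabilises MHC class II, and Il4i1 (chr7:44816387-44840809) a secreted L-amino acid oxidase. Nfkbid (chr7:30421732-30428746) encodes a nuclear member of the IkB family, which modulates NF-kB. Bcar3 (chr3:122294136-122530191), an adaptor protein that was not in the gate, is a marker that came with the description of these cells, drawn from these same data.

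Promoters were read for Nfkbid and for early genes that were higher in the activated cells below, because their products are known to act in NF-kB and EGR circuits. The 250 bases before each RefSeq transcription start (GRCm38.p6) are printed 5′ to 3′ on the gene's strand, and capitals mark a match to the NF-kB motif in the first 3 and to the EGR motif, GCGGGGGCG on either strand, in Nr4a1. The windows are chr7:30422156-30422405 (plus strand) for Nfkbid, chr12:55492648-55492897 (minus) for Nfkbia, chr17:45555450-45555699 (plus) for Nfkbie and chr15:101266596-101266845 (plus) for Nr4a1, and none overlaps an annotated exon.
Nfkbid: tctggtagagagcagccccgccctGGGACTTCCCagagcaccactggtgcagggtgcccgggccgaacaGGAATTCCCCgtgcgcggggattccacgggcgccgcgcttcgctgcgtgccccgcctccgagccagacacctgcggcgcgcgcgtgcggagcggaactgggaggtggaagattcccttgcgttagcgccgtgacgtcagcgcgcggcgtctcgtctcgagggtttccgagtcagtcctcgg
Nfkbia: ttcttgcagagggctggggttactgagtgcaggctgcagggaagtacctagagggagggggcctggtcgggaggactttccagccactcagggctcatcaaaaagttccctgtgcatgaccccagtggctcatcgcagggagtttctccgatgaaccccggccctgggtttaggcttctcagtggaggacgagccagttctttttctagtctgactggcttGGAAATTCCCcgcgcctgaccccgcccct
Nfkbie: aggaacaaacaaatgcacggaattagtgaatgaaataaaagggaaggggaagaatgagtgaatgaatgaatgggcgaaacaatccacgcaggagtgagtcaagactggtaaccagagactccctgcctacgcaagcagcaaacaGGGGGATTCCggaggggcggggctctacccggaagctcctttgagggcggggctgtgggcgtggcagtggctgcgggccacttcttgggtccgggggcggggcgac
Nr4a1: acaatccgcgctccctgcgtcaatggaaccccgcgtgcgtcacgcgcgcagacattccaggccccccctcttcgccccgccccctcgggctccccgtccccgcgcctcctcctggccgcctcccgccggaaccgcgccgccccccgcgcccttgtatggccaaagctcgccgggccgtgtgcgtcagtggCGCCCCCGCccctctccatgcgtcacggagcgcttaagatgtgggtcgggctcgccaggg
Nfkbid held 2 NF-kB matches before this start and none before its 2 other starts. Of 20 genes of the NF-kB list with a promoter entry, 8 held the NF-kB motif, against 8.23% of all 27025 genes with an entry. Those were Bcl2l1, Nfkb2, Nfkbia, Nfkbid, Nfkbie, Rel, Tnfaip3 and Tnip1. Of the 13 genes with an entry among 16 described below as higher in activated cells, Bcl2a1b and Bcl2a1d held the EGR motif GCGTGGGCG (0.622% of all genes), Nr4a1 held GCGGGGGCG (2.93%), Kdm2b and Tnfaip3 held the NF-kB motif, and none held the SRF CArG box (1.62%). Of 19 immediate early genes with an entry, Dusp5, Egr2 and Zfp36 held the CArG box, Dusp2, Fosb, Nr4a1 and Zfp36 held GCGGGGGCG, and Egr2, Fos and Fosb held the NF-kB motif. Both strands were searched, and a match is a run of letters in this window, not a shown binding site. The table used has no entry for Egr3, Egr1, Cd83, Myc, Kdm6b or Bhlhe40.

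Cd83 was the gate gene that nearly all activated cells carried. It had a UMI in 765 of the 799 cells (95.7%), against 594 for Il4i1, 546 for Nfkbid, 530 for Egr3 and 203 for Egr1. Egr3 or Egr1 was detected in 589 cells (73.7%), so the other cells passed through Cd83, Il4i1 and Nfkbid together, the most frequent combination with 210 cells. Egr3, Cd83 and Il4i1 alone made up 162 cells, Egr3, Cd83 and Nfkbid 110, Egr3 with Cd83, Il4i1 and Nfkbid 96, and 37 cells carried all 5 genes. The name thus holds for Cd83 in nearly all and for Egr3 in 66.3% of the cells. Cells just inside the gate, with 3 genes, numbered 595, and cells just outside, with 2 genes, 1979. Bcar3, outside the gate, had a UMI in 621 activated cells (77.7%), and Cd79b, the partner of Cd79a, in 784.

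Activated cells were deeper than other B cells. Median depth in activated cells was 7010.5, 6189.5 and 7288.5 UMIs on ND and 7624, 7909.5 and 4549.5 UMIs on MCDHFD, in order of replicate, against 5087, 4504 and 5433 and 5602, 5780 and 3529 UMIs in the other gated B cells. Each activated cell was therefore paired with another B cell of the same library within 0.2 log2 units of its UMIs, which gave 799 pairs. The partner was drawn at random, and a single draw was used for each set of cells. In those matched cells Cd83 had a UMI in 33.7% of cells (mean over 6 libraries), Nfkbid in 12.4% and Egr3 in 5.49%. T cells, taken as cells with little of a B cell program, had Cd83 in 3.86%, Egr3 in 2.39%, Il4i1 in 1.14% and Nfkbid in 13.1%, and of T cells 1.01% to 1.60% per library carried at least 3 gate genes, at median depths of 5809 to 8868 UMIs. Predicted doublets made up 10 of the 799 activated cells and were kept.

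The share of activated cells among B cells did not differ between the diets beyond the spread of the libraries. It was 5.04, 8.03 and 5.42% on ND and 4.27, 5.27 and 4.62% on MCDHFD, replicate by replicate, with 95% Wilson intervals, which cover counting error only, between 3.56% and 9.41%. ND replicate 2 was the highest, and MCDHFD replicate 2 lay between ND replicates 1 and 3, so the groups overlapped. The means were 6.16% ± 1.63 (SD, n = 3) on ND and 4.72% ± 0.507 (SD, n = 3) on MCDHFD, a difference of -1.44 percentage points (two-sided exact permutation test, p = 0.2, where 3 against 3 libraries cannot go below 0.1).

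The difference in percentage points was smaller without ND replicate 2. Thinning lowered the shares of both diets, so its differences in points are not on the scale of the unthinned ones. Without ND replicate 2 it was -0.510 points (exact permutation p = 0.4), within the 4 unfiltered libraries -0.462 points and between the 2 filtered libraries -3.41 points. After thinning to 3000 UMIs per B cell the values were 1.88, 3.83 and 2.07% on ND and 1.68, 1.56 and 2.99% on MCDHFD (exact permutation p = 0.5). At 2000 UMIs they were 0.869, 2.62 and 1.10% on ND and 1.11, 0.923 and 1.29% on MCDHFD (exact permutation p = 0.9). The means were 2.59% on ND and 2.08% on MCDHFD at 3000 UMIs, and 1.53% and 1.11% at 2000 UMIs. Shallower B cells were left out, 214 to 386 per library at 3000 UMIs and 45 to 96 at 2000. The parts left out were unequal, at 3000 UMIs 386 of 1255 B cells in MCDHFD replicate 3 and 225 of 3848 in ND replicate 1. At either depth the filtered library was the highest of its diet. The wider set of B cells with at least 2 gate genes, unthinned, was 18.8, 23.3 and 19.4% of B cells on ND and 16.6, 16.9 and 16.3% on MCDHFD. These did not overlap, and the difference of -3.92 points had the smallest p this design allows (exact permutation p = 0.1).

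As a share of all cells, activated B cells were 2.97, 4.22 and 3.15% on ND and 1.71, 2.13 and 1.64% on MCDHFD, again without overlap. All gated B cells moved the same way, from 58.9, 52.5 and 58.2% of cells on ND to 40.1, 40.5 and 35.6% on MCDHFD (exact permutation p = 0.1 for each). In splenocytes counted this way, fewer B cells and more of the other cells cannot be told apart.

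**Figure D1:**
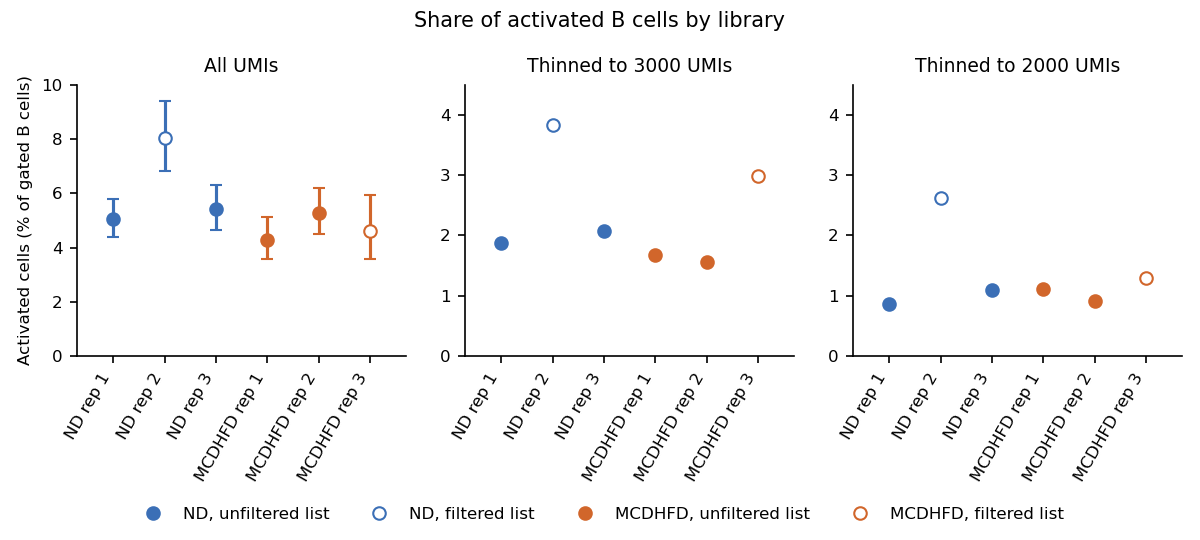
Activated cells as a percent of gated B cells in each of the 6 libraries, with all UMIs (left, bars are 95% Wilson intervals) and with each B cell thinned to 3000 or 2000 UMIs; open circles are libraries with filtered barcode lists. ND replicate 2, at 8.03%, is the highest at every depth, and the other libraries lie between 4.27% and 5.42% with all UMIs.

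B cells with more gate genes also had more RNA of other early response genes. Mean Myc over the 6 libraries was 19.1 CPM (UMIs of the gene per 1000000 UMIs summed) in B cells with no gate gene, 32.4 with 1, 40.4 with 2, 103 with 3 and 314 with 4 or 5. Nr4a1 went from 5.57 through 20.1 to 174 CPM, and Egr2, the third EGR factor, from 0.293 through 1.85 to 30.1 CPM. Irf4, Nfkbia and Cd69 stayed nearly level up to 2 genes and were higher from 3 genes on: Irf4, a factor for the activated and plasma cell programs, was 62.1, 72.1 and 216 CPM with 0, 2 and 4 or 5 genes, and Cd69, an early activation marker, 41.1, 40.1 and 126 CPM. Bcar3 climbed at each step from 198 to 536 CPM.

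B cell identity genes changed less across the same steps. Ccr7 was 82.5 CPM with no gate gene and 84.2 with 4 or 5, Fcer2a 232 and 297, Ighd 808 and 642, and Cd79b 1336 and 1034 CPM. Klf2, a factor that holds resting lymphocytes in circulation, went down at each step from 522 through 350.4 to 189.6 CPM, and Txnip, a gene of resting metabolism, from 217 to 75.6 CPM. The cells with more gate genes were also deeper (medians of 4837 UMIs with none and 7099 with 3), and these levels, which rest on sums of cells of unequal depth, are given with no test.

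**Figure D2:**
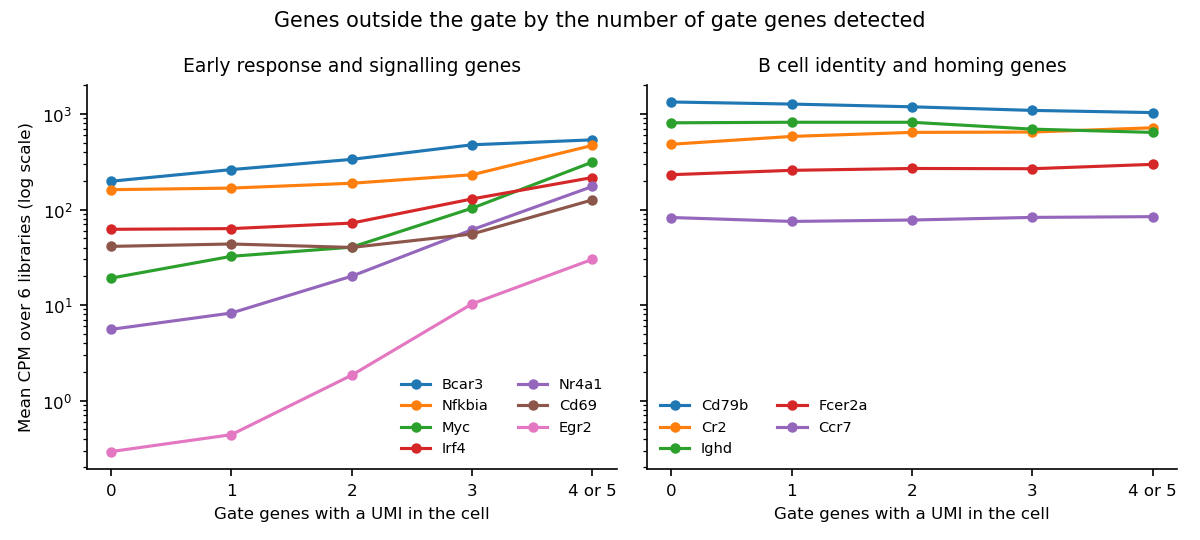
Mean CPM over the 6 libraries (log axis) of genes outside the gate in B cells that carried 0, 1, 2, 3 or 4 to 5 gate genes. The early response genes on the left climb with the number of gate genes, Nr4a1 from 5.57 to 174 CPM, and the identity and homing genes on the right stay closer to level, Ccr7 between 75.1 and 84.2 CPM.

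Against the depth-matched B cells, immediate early genes were higher in the activated cells. With the 10 genes used to gate left out, 526 of 9608 genes were higher (5.47%) and 431 lower (4.49%) in activated cells (edgeR quasi-likelihood test with library as a block, adjusted p under 0.05), and 957 in all (9.96%). Nr4a1 stood at 52.3, 131 and 71.7 CPM in activated cells on ND and 95.0, 55.0 and 149.7 CPM on MCDHFD, against 8.70, 7.99 and 8.31 and 10.2, 9.84 and 11.8 CPM in matched cells. Every library was higher in activated cells and the groups of values did not overlap, with a log2 difference of 3.02 (SE 0.186, edgeR adjusted p = 3.47e-07).

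Myc, a transcription factor that drives growth, was 64.2, 198 and 80.0 CPM in activated cells on ND and 112, 126 and 332 CPM on MCDHFD, against 12.5, 28.0 and 18.7 and 17.4, 21.2 and 73.6 CPM in matched cells (log2 2.37, SE 0.118, edgeR adjusted p = 5.46e-08). MCDHFD replicate 3 and ND replicate 2, the libraries with filtered lists, had the highest Myc in activated cells. Egr2 had 107 UMIs in activated and 3 in matched cells, a ratio of 35.5 (95% counting interval 11.8 to 175), and Nr4a3, a relative of Nr4a1, 85 UMIs against 1 (ratio 84.6, interval 14.8 to 3379), and both passed the test (edgeR adjusted p = 7.94e-05 and 8.27e-05). These intervals pool UMIs and cover no spread between cells or libraries. Nab2, a corepressor that EGR factors induce and bind, was 19.6 to 74.0 CPM against 4.54 to 16.0 CPM (log2 1.92, SE 0.175). Of 23 immediate early genes on the list, 19 could be tested and 13 were higher, none was lower and 6 did not pass, with a median log2 difference of 0.82 against -0.01 over all 9608 genes. Junb (log2 1.15), Ier2 (1.01), Dusp2, a phosphatase that acts on ERK (1.40), and Irf4 (0.82) were among them, while Fos had a value of -0.17 and Btg2 -0.23 without passing.

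Heat shock and dissociation genes were higher in the same cells. Of 13 tested genes of that list, 9 were higher and none lower (median log2 0.46), with Hsp90aa1 at log2 0.55, Hspd1 at 0.62 and Dnaja1 at 0.41. The list shares Fos, Jun, Atf3 and Ier2 with the immediate early list, and Hspd1 and Hspe1 with the Myc-linked list below. The part that tissue dissociation has in these levels was not tested.

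NF-kB genes were higher as well. Of 24 listed members, targets and inhibitors of the pathway, 23 were tested with Nfkbid left out, and 16 were higher, none lower and 7 did not pass (median log2 0.75). Among the subunits, Rel was 299 to 484 CPM in activated and 129.6 to 233 CPM in matched cells (log2 1.01, SE 0.0640, edgeR adjusted p = 3.95e-07), Relb differed by log2 1.06, Nfkb1 by 0.63 and Nfkb2 by 0.61, while Rela had 0.29 and did not pass (edgeR adjusted p = 0.166).

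Inhibitors of the pathway, among them the pair whose promoters are printed above, were higher too. Nfkbia, the classical IkB, was 205 to 516 CPM against 97.7 to 209 CPM (log2 0.89, SE 0.0776), Nfkbie 69.7 to 129 CPM against 28.8 to 53.0 CPM (log2 1.24, SE 0.107), and Tnfaip3, the ubiquitin-editing inhibitor A20, 29.9 to 48.5 CPM against 7.57 to 21.5 CPM (log2 1.61, SE 0.173). In each library all 3 were higher in activated than in matched cells. Birc3, Cflar and Tnip1, also targets or inhibitors of the pathway, had log2 values of 0.20, -0.03 and 0.15 and did not pass.

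Survival genes of the Bcl2 family split by member. Bcl2a1b, an antiapoptotic NF-kB target, was 229.7, 176 and 206 CPM in activated cells on ND and 178, 184 and 317 CPM on MCDHFD, against 35.4, 59.0 and 46.4 and 38.9, 26.5 and 64.8 CPM in matched cells. No value overlapped (log2 2.21, SE 0.123, edgeR adjusted p = 1.31e-07). Bcl2a1d had log2 1.79 (SE 0.152), but the 2 are near-identical copies whose reads the counting could split, so their separate values are uncertain. Bcl2l1, which encodes Bcl-xL, had log2 1.92 and the proapoptotic Bcl2l11 0.66, while Bcl2 (-0.05), Mcl1 (0.15) and Bax (0.19) did not pass. The call of Bcl2l11 was lost in 8 of the other settings. In all, 4 of 12 tested genes of the apoptosis and survival list were higher and none lower.

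Growth genes linked to Myc were higher in small steps. Of 26, 20 were higher, none lower and 6 did not pass (median log2 0.52). Nucleolar and ribosome assembly genes were Gnl3 (log2 1.13), Nop58 (1.00), Nolc1 (0.90) and Ncl (0.67), and Srm, which makes spermidine, had 0.66. Of 21 cell cycle genes, Ccnd2, a cyclin of early G1 (1.20, SE 0.136), its kinase Cdk6 (0.91, SE 0.113) and Pcna (0.66) were higher, and the mitotic genes Mki67 (-0.33) and Top2a (-0.04) did not pass.

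Bcar3, the marker that the gate did not use, was 413, 299.8 and 546 CPM in activated cells on ND and 776, 630.1 and 273 CPM on MCDHFD, against 239, 158 and 335 and 342, 367 and 144 CPM in matched cells. Each library was higher in its activated cells although the ranges overlapped between libraries (log2 0.79, SE 0.0767, edgeR adjusted p = 1.96e-05). Since Bcar3 was given as a marker from these same data, its difference is no independent support. Of 23 tested B cell receptor signalling genes, 7 were higher and 4 lower (median log2 -0.12). The higher ones included Nfatc1 (0.69), the calcium-regulated factor, Cd72 (0.62), an inhibitory coreceptor, and Pik3ap1 (0.49), an adaptor to PI3K, and the lower ones Fcgr2b (-0.55), the inhibitory Fc receptor, Syk (-0.27) and Cd79b (-0.21).

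Surface and homing genes changed for few members. Of 14 tested costimulation and activation genes, Il21r (0.91), Cd69 (0.83) and Cd40 (0.51) were higher and Tnfrsf13b, the receptor TACI, lower (-0.27), and Cd86 had 0.08 and Icosl -0.22 without passing. The call of Tnfrsf13b was lost in 8 of the other settings. Among 16 chemokine, cytokine and homing genes, 4 were higher, with Tnf (1.45), Gpr183 (0.53), which guides activated B cells to the outer follicle, and Cxcr5 (0.43). The 4 lower ones included S1pr4 (-0.86), Klf2 (-0.55) and S1pr1 (-0.49), which act in recirculation. Ccr7, which draws activated B cells to the T zone, had 0.20 (SE 0.114) and did not pass. Of 12 MHC class II genes only March1, a ligase that removes class II from the surface, passed, and it was lower (-0.60, SE 0.0735).

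**Figure D3:**
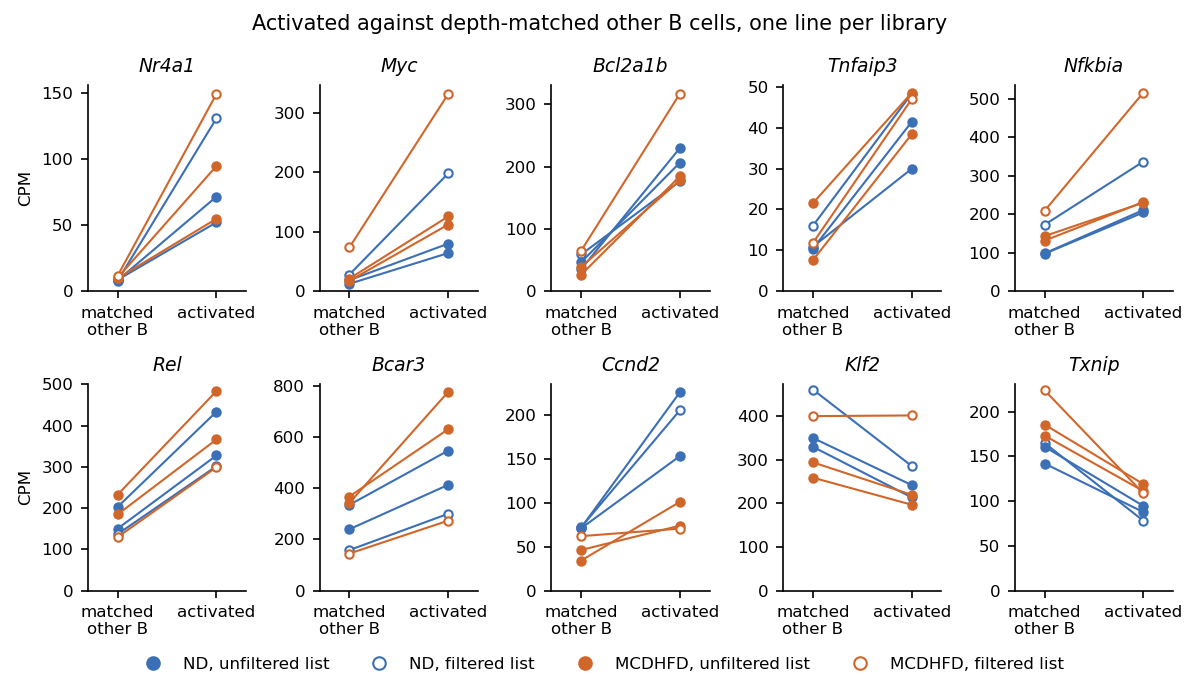
CPM of 10 genes in the depth-matched other B cells and the activated B cells of each library, joined by a line per library; all axes start at 0 and open circles are libraries with filtered lists. Nr4a1 and Bcl2a1b rise in all 6 libraries with no overlap between the columns, Myc, Bcar3 and Rel rise in each library, and Klf2 is lower in 5 of 6 libraries.

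The summed level of the 6 follicular markers was 1505, 1664 and 1610.2 CPM in activated cells on ND and 1775, 1676 and 1808 CPM on MCDHFD, within the range of 1358 to 1822 CPM in matched cells. Of them Fcer2a (0.39) and Cxcr5 were higher, and 2 were lower, Klf2 among them. Of 10 marginal zone markers, Mzb1 (-0.86) and Tm6sf1 (-0.35) were lower and Cr2 had 0.03. Of 6 tested transitional markers, Vpreb3 (-0.64) and Pafah1b3 (-0.92) were lower, and of 8 germinal centre markers Bcl6 (0.47) and Rgs13 (1.45) were higher. The calls of Bcl6, Rgs13 and Tm6sf1 were lost in 7, 6 and 5 of the other settings. Ighd had -0.01.

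The other genes that the naming rule gave as higher were Mreg, which moves organelles (log2 2.48), Mir155hg, the host transcript of miR-155 (2.39), Marcksl1, an actin regulator (2.20), Rilpl2 (1.84), the histone demethylases Kdm6b (1.80) and Kdm2b (1.57), the repressor Bhlhe40 (1.75), the zinc finger gene Hivep3 (1.67) and the orphan receptor Nr6a1 (1.64). Kdm6b was 45.2 to 106 CPM in activated and 15.9 to 23.6 CPM in matched cells, and Mir155hg 15.2 to 48.5 against 0 to 8.84 CPM. By the rule each was higher in all 6 libraries, as were 1082 of all 9608 genes (11.3%), while 445 (4.63%) were lower in all 6.

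Genes that were lower in activated cells fell into several groups, and part of them moved with RNA of other cell types in the matched cells. Plasma cell markers (8 genes) summed to 967, 551 and 1809.6 CPM in activated cells on ND and 467, 556 and 502 CPM on MCDHFD, against 4331, 1576 and 1218 and 4400.1, 2041 and 5539.6 CPM in matched cells, and neutrophil markers (8 genes) to 1493, 17.7 and 277 and 512, 761 and 67.5 CPM against 7451, 14982 and 105 and 1691, 1534 and 56.0 CPM. The matched cells were higher for plasma markers in 5 of 6 libraries, and ND replicate 2 held the widest gap for neutrophil markers. Of 7 tested plasma markers Tnfrsf17, Jchain, Slpi, Xbp1 and Mzb1 were lower and Irf4, which is also on the immediate early list, was higher, and of 8 neutrophil markers 4 were lower, Ngp by the most (log2 -5.68).

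With all cells that had at least 10 neutrophil-list or Jchain UMIs left out, an alternative added after the data were seen, 9 of the 15 genes named as lower kept their call and 6 did not. Those lost were the secretory pathway genes Txndc5 (log2 -1.09, then -0.18), Edem2 (-1.05, then -0.22) and Ckap4 (-1.22, then -0.50), as well as Pglyrp1 (-1.12, then -0.40), Ifitm2 (-1.20, then -0.97) and Rflnb (-1.04, then -0.58). All 15 genes named as higher, and Bcar3, kept theirs. Xbp1, a plasma cell factor, went from -1.19 to 0.34 without passing. This setting also drew new matched cells at random, and its changes were not told apart from those of a new draw. It kept 694 of the 957 calls, and removal of predicted doublets, which also drew anew, kept 703. The genes named as lower that held were Ifitm6 (-3.75), Ifit3 (-1.88), Trp53inp1, a p53 target (-1.30), the cell cycle phosphatase Cdc25b (-1.27), Sema5a (-1.15), Smpdl3a (-1.13), the calcium channel gene Cacna1i (-1.09), Tns3 (-1.09) and Tent5a (-1.06). Of these Ifit3, Sema5a and Tns3 lost the call in 5, 4 and 3 of the other settings. Cacna1i was 12.4 to 28.6 CPM in activated and 32.1 to 55.3 CPM in matched cells.

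Few markers of other cell types passed otherwise. The summed T cell markers (12 genes) were 104.1 to 157 CPM in activated and 97.6 to 175 CPM in matched cells, with at most 9 of them at 0 in a library, and the erythroid markers (7 genes) 20.5 to 189 and 17.4 to 175 CPM. The summed monocyte and macrophage markers (11 genes) were 217 to 908 and 271 to 1212 CPM. The 908 CPM were in ND replicate 2, where 1 activated cell held 638 of the 755 UMIs of Cst3, a marker on that list. Of 2 tested T cell genes Lck was higher (1.13), of 3 dendritic cell genes Zbtb46 was higher (2.24), of 5 monocyte and macrophage genes Lyz2 (-2.72) and Tyrobp (-0.37) were lower, and none of 5 NK cell or 5 erythroid genes passed. The call of Tyrobp was lost in 9 of the other settings, beside the 1 where its sign changed, and those of Zbtb46, Tbx21 and S100a6 in 3 each. Of 7 B-1 markers S100a6 was lower (-1.06), of 6 age-associated and memory markers Tbx21 was higher (1.48), and of 7 IL-4 and STAT response genes Myc, Batf (0.91) and Fcer2a were higher and Xbp1 was lower.

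Txnip and Tsc22d3, genes of quiescence that glucocorticoids raise, were lower in activated cells of all 6 libraries. Txnip was 87.6, 77.9 and 94.5 CPM in activated cells on ND and 111, 119 and 109 CPM on MCDHFD, against 142, 165 and 161 and 173, 185 and 224 CPM in matched cells, with no overlap (log2 -0.86, SE 0.0795, edgeR adjusted p = 1.23e-05). Tsc22d3 had log2 -0.78 (SE 0.0774). Of 11 tested glucocorticoid-responsive genes 3 were lower and none higher, and of 24 interferon response genes 6 were lower and none higher (median log2 -0.36), Ly6a (-0.56) and Stat2 (-0.60) among them.

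Between the diets, few genes changed within the activated cells. In a fit of diet that also held a term for filtered or unfiltered barcodes, 18 of 8959 genes were higher (0.201%) and 38 lower (0.424%) on MCDHFD, 56 in all (0.625%), where 888 had an unadjusted p under 0.05 (edgeR quasi-likelihood test). The same 2 libraries are those with another Cell Ranger version in the file headers, so this term cannot be told apart from the version. The calls rest on it: with diet alone edgeR called 1 gene, Hbb-bt, and DESeq2 called 24 genes with the list form and 3 without it. With diet alone all 24 genes that the naming rule gave lost the call. Without MCDHFD replicate 2, 19 genes were called and 18 of the 24 lost it, while Fkbp5, Ptpn22, Rgs13, Ifi27l2a and Ccnd2 kept it whichever single library was left out. The self-test of this comparison on simulated counts recovered 73% of genes changed by log2 1. Those counts had the same dispersion for all genes and no list-form difference, so recovery in the real counts was not tested. Of the 56 genes, 14 were immunoglobulin genes, whose sums can rest on single cells, as with Jchain, where 1 cell held 69.2% of the 2642 UMIs. The sums held 340756 to 1836918 UMIs per library, the lowest in MCDHFD replicate 3 with 58 cells.

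Genes higher on MCDHFD were led by Fkbp5 and Ptpn22. Fkbp5, a cochaperone of the glucocorticoid receptor that the receptor itself induces, was 28.9, 19.7 and 37.3 CPM on ND and 107, 142 and 44.0 CPM on MCDHFD in activated cells. All 3 MCDHFD libraries lay above all 3 ND libraries, the filtered library of each diet lowest (log2 1.75, SE 0.217, edgeR adjusted p = 0.000452). Ptpn22, a phosphatase that restrains antigen receptor signalling, was 58.2, 31.6 and 62.8 CPM on ND and 156, 275 and 82.2 CPM on MCDHFD, again with no overlap and with the filtered libraries lowest (log2 1.70, SE 0.215, edgeR adjusted p = 0.000507).

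Membrane lipid and carbohydrate enzymes were among the other 10 genes named as higher. Abca1, which exports cholesterol and phospholipid, was 29.9, 32.5 and 62.8 CPM on ND and 116, 92.6 and 76.3 CPM on MCDHFD (log2 1.14, SE 0.237, edgeR adjusted p = 0.0368). Lpcat1, which remodels phosphatidylcholine, was 32.1 to 45.4 CPM on ND and 63.7 to 85.1 CPM on MCDHFD (log2 0.86). The glycosyltransferase genes St3gal1 (log2 0.93) and Mgat4a (1.05) and the heparan sulfate sulfotransferase gene Hs3st1 (1.44) were higher as well. Hs3st1 was 14.7 to 25.6 CPM on ND and 42.4 to 76.3 CPM on MCDHFD. The calls of Lpcat1, Abca1, St3gal1, Mgat4a and Hs3st1 were lost in 11, 9, 6, 6 and 4 of the other settings.

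The remaining named genes were the scaffold Ahnak, at 19.1 to 38.6 CPM on ND and 71.7 to 99.8 CPM on MCDHFD (log2 1.42), the adhesion gene Emb (1.41), Pik3ip1, which inhibits PI3K (1.40), the coactivator Zmiz1 (0.91) and Arap2, a GTPase-activating protein for Arf (0.83). The calls of Emb, Pik3ip1, Zmiz1, Arap2 and Ahnak were lost in 10, 10, 7, 5 and 4 of the other settings. All 12 were higher on MCDHFD both within the unfiltered and between the filtered libraries, and by the naming rule none overlapped between the diets, as held for 404 of all 8959 genes in this direction (4.51%). Outside the ranking, Gpr183 was called higher at 141 to 206 CPM on ND and 267 to 353 CPM on MCDHFD (log2 0.74, edgeR adjusted p = 0.0472), a call that was lost in 12 of the other settings.

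Among the genes lower on MCDHFD, Rgs13 was nearly absent there. Rgs13, a regulator of G protein signalling typical of germinal centre B cells, was 65.3, 26.6 and 29.0 CPM on ND and 0, 1.51 and 0 CPM on MCDHFD in activated cells, found in 21, 10 and 14 cells on ND and 0, 1 and 0 cells on MCDHFD. Its 189 UMIs on ND against 2 on MCDHFD gave a ratio per total UMI of 58.4 (95% counting interval 16.0 to 486, edgeR adjusted p = 0.000122). The interval pools UMIs and covers no spread between cells or libraries. The summed level of the 9 germinal centre markers was 305, 139 and 164 CPM on ND and 133, 123 and 126 CPM on MCDHFD, and Bcl6 (log2 -0.36), Fas (-0.54) and Mef2b (-0.46) did not pass.

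Ccnd2 and Cdk6, which were higher in activated than in matched cells, were lower on MCDHFD. Ccnd2 was 153, 205 and 226 CPM on ND and 73.8, 101 and 70.4 CPM on MCDHFD (log2 -1.25, SE 0.192, edgeR adjusted p = 0.00448). Cdk6 was 109, 84.8 and 108 CPM on ND and 56.6, 62.5 and 47.0 CPM on MCDHFD (log2 -0.92, SE 0.174, edgeR adjusted p = 0.0219). Neither gene overlapped between the diets, and they were the only 2 of 20 tested cell cycle genes called, with Mki67 at 0.12 and Ccnd3 at 0.74. The calls of Ccnd2 and Cdk6 were lost in 3 and 7 of the other settings.

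Fdps and Idi1 make isoprenoid precursors of cholesterol. Fdps was 44.6, 29.6 and 20.7 CPM on ND and 6.06, 9.03 and 8.80 CPM on MCDHFD (log2 -2.09, SE 0.387, edgeR adjusted p = 0.0202), and Idi1 25.6, 14.8 and 22.1 CPM on ND and 5.05, 3.01 and 11.7 CPM on MCDHFD (log2 -2.14, SE 0.448, edgeR adjusted p = 0.0378). Both were lower in all 3 MCDHFD libraries than in any ND library, although on few molecules, 163 UMIs of Fdps and 107 of Idi1 over all activated cells. The calls of Fdps and Idi1 were lost in 5 and 8 of the other settings.

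Of 19 tested interferon response genes 2 were lower and none higher. Ifi27l2a, an interferon-induced gene and one of the pair, was 534, 822 and 578 CPM on ND and 255, 210.0 and 117 CPM on MCDHFD (log2 -1.71, SE 0.221, edgeR adjusted p = 0.000608). The list's median was log2 -0.76 against -0.01 over all genes, and Isg15 (-1.48) and Bst2 (-0.76) did not pass. The nonclassical MHC class I gene H2-Q7 was 192 to 228 CPM on ND and 88.0 to 127 CPM on MCDHFD (log2 -0.90), a call that was lost in 6 of the other settings.

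Other genes that the rule gave as lower were Lef1, a lymphoid transcription factor (log2 -2.22), the elongation factor partner Eaf2 (-1.80), Phf11b (-1.33) and Rgs2 (-1.28). All 12 genes of the rule were lower on MCDHFD in both forms of barcode list, and non-overlapping values in this direction occurred in 320 of all genes (3.57%). Of 6 transitional markers, Sox4 (log2 -2.66) and Vpreb3 (-0.85) were called lower, and so was the coreceptor Cd72 (-0.84, SE 0.165). The calls of Sox4, Vpreb3 and Cd72 were lost in 9, 11 and 10 of the other settings, and those of Lef1, Rgs2, Phf11b and Eaf2 in 9, 8, 7 and 5. Hbb-bt, a haemoglobin gene, was 37.5 to 45.2 CPM on ND and 2.93 to 5.27 CPM on MCDHFD, and the 7 erythroid markers summed to 189, 58.2 and 79.3 CPM on ND and 25.3, 28.6 and 20.5 CPM on MCDHFD. In ND replicate 1, 1 cell held 177 of the 185 UMIs of Car2, an erythroid marker on the list. Neutrophil marker RNA was 1493, 17.7 and 277 CPM on ND and 512, 761 and 67.5 CPM on MCDHFD. Single cells held most of it: of the S100a9 UMIs 1 cell had 1277 of 1793 in ND replicate 1, 159 of 223 in ND replicate 3, 266 of 300 in MCDHFD replicate 1 and 514 of 576 in MCDHFD replicate 2. Its part in the diet differences was not tested beyond the setting that left those cells out, where 101 genes were called and 52 of the 56 were kept.

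**Figure D4:**
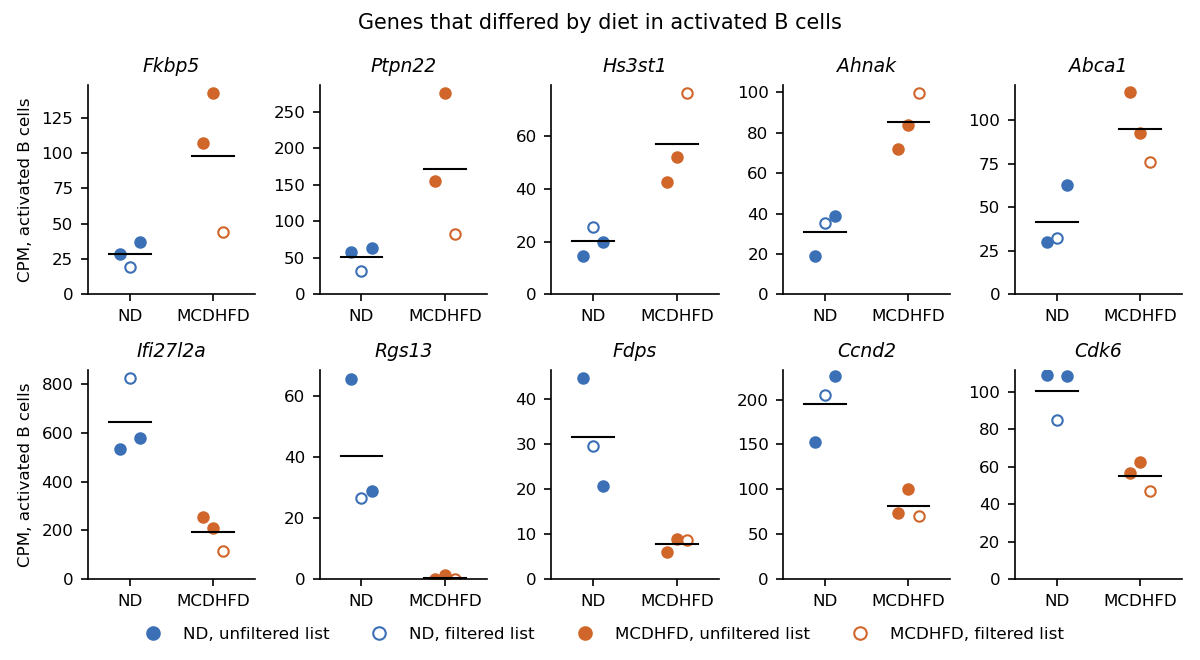
CPM in activated B cells of each library for 10 genes named as different between the diets, with black bars at the mean of 3 libraries per diet and open circles for filtered lists; axes start at 0. Fkbp5, Ptpn22, Hs3st1, Ahnak and Abca1 are higher and Ifi27l2a, Rgs13, Fdps, Ccnd2 and Cdk6 lower in every MCDHFD library, and Fkbp5 reaches 142 CPM in MCDHFD replicate 2 against at most 37.3 CPM on ND.

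Within the activated cells the gate genes are held high by the choice of cells, and their levels by diet are a description. Egr3 was 148, 233 and 208 CPM on ND and 217, 177 and 194 CPM on MCDHFD, and Cd83 391, 461 and 433 CPM on ND and 485, 477 and 493 CPM on MCDHFD. With the gate genes left out, none of 19 immediate early, 22 NF-kB or 26 Myc-linked genes was called by diet in edgeR, where 3, 2 and 5 of them had an unadjusted p under 0.05. Myc, which is on the immediate early and Myc-linked lists, had log2 0.68 (SE 0.156, edgeR adjusted p = 0.0598) and was the only gene of the lists that DESeq2 with the list form called, higher on MCDHFD. Of the 526 genes higher in activated cells, 2 were called higher by diet, among them Gpr183, and 8 lower, among them Ccnd2, Cdk6, Cd72 and Rgs13. Over all 8959 tested genes, 18 were called higher (0.201%) and 38 lower (0.424%). A value that did not pass does not show that the diets were alike.

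In all gated B cells, where the gate did not use these genes, 161 of 13864 genes were higher (1.16%) and 259 lower (1.87%) on MCDHFD in edgeR with the list form, 420 in all (3.03%), against 1 with diet alone. Leaving out ND replicate 2 or MCDHFD replicate 3 gave 1606 and 1634 genes, and leaving out any of the other 4 libraries 92 to 145. Il4i1 was the only gate gene called. It was 56.8, 107 and 46.1 CPM on ND and 32.8, 35.7 and 55.7 CPM on MCDHFD, lower within the unfiltered and between the filtered libraries, although MCDHFD replicate 3 lay among the ND values (log2 -0.74, SE 0.115, edgeR adjusted p = 0.02). Egr3 was 20.4, 31.9 and 28.2 CPM on ND and 23.2, 20.3 and 20.3 CPM on MCDHFD (log2 -0.34, SE 0.141), Egr1 differed by -0.42, Cd83 by -0.04, Nfkbid by 0.07 and Bcar3 by 0.14, and none of these passed. Without ND replicate 1 or MCDHFD replicate 1 Il4i1 was no longer called (log2 -0.64 and -0.72), nor with diet alone (-0.78).

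Of the 56 genes called by diet in activated cells, 27 were called in the same direction in all B cells, of which the activated cells are a subset, and 48 had the same sign. Among the 24 genes of the naming rule 18 were called in both. Fkbp5 differed by log2 2.20 (SE 0.267) in all B cells and 1.75 in activated cells, Ptpn22 by 1.62 and 1.70, Ifi27l2a by -1.73 and -1.71, Ccnd2 by -1.23 and -1.25, and Fdps by -1.15 and -2.09. Eaf2, Mgat4a, Lpcat1, Pik3ip1 and Zmiz1 were among those called in activated cells and not in all B cells, with Eaf2 at -0.29 and -1.80. Values in all B cells did not overlap between the diets for 729 genes that were higher (5.26%) and 737 that were lower (5.32%) on MCDHFD. Genes that the naming rule gave in all B cells but not in activated ones were Tbc1d9 (1.32), Il9r (1.29), Ube2c (-2.26), Top2a (-1.69), Mki67 (-1.68) and Akap12 (-1.66), of which Ube2c, Top2a and Mki67 act in mitosis.

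Whether a diet difference was particular to the activated cells was tested as an interaction with the depth-matched cells. It called 40 of 9608 genes higher (0.416%) and 20 lower (0.208%), 60 in all (0.624%), of which 27 were immunoglobulin genes, while DESeq2 called 4. None of the 24 genes that the rule gave for diet was among the 7 named by the rule. Those are at most 5 each way of the 14 higher and 2 lower that met it. Absence from the 7 thus does not show that a gene was not called. Fkbp5 had an interaction of -0.62 (SE 0.272, edgeR adjusted p = 0.766). The count ran from 4 to 120 as single libraries were left out: without ND replicate 2 or MCDHFD replicate 3 it was 4, and without ND replicate 1 it was 120.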

How the data were processed

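Splenocytes from 6 libraries (3 ND, 3 MCDHFD) were measured by droplet single-cell RNA sequencing. Per the submitters' processing notes, reads were processed with Cell Ranger 9.1.0 on mm10 and with Seurat 4.3.0, while the file headers of the matrices name Cell Ranger 9.0.1 or 7.2.0. The deposited matrices hold UMI counts, whole numbers with no normalization, for 32285 genes. ND replicate 2 and MCDHFD replicate 3 were deposited with filtered barcode lists (3409 and 3807 barcodes) and the other 4 with unfiltered lists, so the form of the list entered the diet models as a second term. These 2 are also the libraries with Cell Ranger 7.2.0 in the file headers, so list form and version cannot be told apart.

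Cells were barcodes with 1000 UMIs or more, 400 genes or more and a mitochondrial share of 10% or less, and the gate was applied to raw UMIs. Predicted doublets (Scrublet, 576 cells, none found in the 2 filtered libraries) were kept, and their removal was an alternative. UMIs were summed per library over activated cells, depth-matched other B cells or all gated B cells, and tested with edgeR 4.0.16 in R 4.3.3 (quasi-likelihood, TMM, its default filter on low counts, Benjamini-Hochberg adjustment, threshold 0.05). CPM values are UMIs scaled to a total of 1000000 per sum, where the sums of activated cells held at least 340756 UMIs, and log2 differences are edgeR's. Shares were compared with a two-sided exact permutation test. Simulated counts with 200 genes changed by log2 1 gave back 73% of them for diet in activated cells (8681 genes), 98.5% for activated against matched cells (9187 genes) and 52% for the interaction (9192 genes). All genes had the same dispersion there, libraries differed only in depth, and genes with few counts were not among those changed. Recovery in the real counts was not tested.

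The members, gene lists and tests were chosen with earlier results of these data known. Genes were named by a rule. Among genes with adjusted p under 0.05 and a mean log2 CPM of at least 4, it took the 15 with the largest difference each way between activated and matched cells (same direction in all 6 libraries), the 12 each way for diet in activated cells and the 5 each way for the other tests (no overlap between diets). Immunoglobulin, T cell receptor, mitochondrial, haemoglobin and unnamed genes were left out, the gate genes and Bcar3 were always named, and so were up to 4 members of a list by smallest p. Other list members named, and Hbb-bt and Jchain, were chosen after their values were seen. Alternatives were DESeq2 1.42.0, no filter, other scalings, diet alone, a replicate block, other gates, no depth matching, doublets removed and each library left out. Some genes that were tested are not reported here.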

Additional observations from a re-analysis of the deposited data

Results flagged for a closer look

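The edgeR interaction test called 60 genes whose diet difference in activated cells differed from that in the depth-matched B cells, and the 7 that the naming rule gave are described here (edgeR adjusted p between 7.36e-05 and 0.0131). The fitted values depend on the prior count where a group has few UMIs, so the UMIs are given with them.

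The interaction was log2 7.29 for Pclaf, 5.11 for Mki67, 5.35 for Birc5 and 5.65 for Hist1h2ao, genes of DNA replication, mitosis and histones. Mki67 had 99, 10 and 22 UMIs on ND and 38, 28 and 17 on MCDHFD in activated cells, against 120, 115 and 54 on ND and 1, 5 and 0 on MCDHFD in matched cells. The low group was thus the matched cells of MCDHFD, and Pclaf had 87, 120 and 69 UMIs on ND and 1, 0 and 0 on MCDHFD there. Hist1h2ao rested on the 2 filtered libraries, with 196 UMIs in matched cells of ND replicate 2 and 54 in activated cells of MCDHFD replicate 3. Without depth matching, with all other B cells summed, Pclaf had 1.54 and Mki67 1.85 and neither was called.

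Anxa1, a lipid-binding protein abundant in myeloid cells, had an interaction of log2 3.41, with 165 and 154 UMIs in matched cells of ND replicates 1 and 2 and at most 18 in every other sum. Trp53inp1 had -1.47 and Ssr4, of the secretory pathway, -1.12. With cells that had at least 10 neutrophil-list or Jchain UMIs left out, the values were 2.72 for Pclaf, 2.21 for Birc5, 1.47 for Mki67, 0.69 for Anxa1, -0.58 for Trp53inp1 and -0.29 for Ssr4, and these 6 were no longer called. That setting also drew new matched cells at random.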

How the results depend on the processing

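Counts are given as genes higher and lower. Signs were followed for genes that the rule gave, called list members, Bcar3 and, in all gated B cells, the gate genes. Those of other values in the text were not followed. Of the values followed, these changed sign, none of them past the threshold after it. In activated cells the diet difference of Camp was 4.07 with a gate of 2 genes. Nfkbid in all gated B cells ran from -0.0349 to 0.169 and Bcar3 in the interaction from -0.0512 to 0.285. Against matched cells Xbp1 was 0.34 without cells of at least 10 neutrophil-list or Jchain UMIs (mixed cells) and Tyrobp 0.0855 without depth matching. The diet calls depend on the list-form term. For activated cells (18 and 38) diet alone gave 0 and 1, DESeq2 gave 7 and 17 with the list form and 0 and 3 with diet alone, no filter gave 66 and 127, a gate of 2 genes 71 and 73, leaving out mixed cells 49 higher, and leaving out single libraries 6 to 26 and 13 to 38. With diet alone 246 genes had an unadjusted p under 0.05. For all gated B cells (161 and 259) diet alone gave 1 and 0, DESeq2 324 and 470 or, with diet alone, 39 and 99, no filter 466 and 831, leaving out mixed cells 262 and 453, the unfiltered libraries only 755 and 1232, and single libraries left out 27 to 652 and 65 to 982. Leaving out 1 filtered library makes the list-form term absorb the other, so those settings rest on 4 libraries.

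Activated against matched cells (526 and 431) gave 1013 and 1345 without depth matching, 257 and 175 with DESeq2, and 366 to 492 and 275 to 416 with single libraries left out, the lowest without ND replicate 1 and then MCDHFD replicate 2 (280 lower). The interaction (40 and 20) gave 14 higher without matching, 4 and 0 with DESeq2 (135 at an unadjusted p under 0.05), 88 and 49 with no filter, 33 lower with doublets removed, 15 and 10 without the mixed cells, 6 and 3 without Egr1, 23 higher with no state by list-form term, and 3 to 68 and 1 to 52 with single libraries left out. The difference in share ran from -3.92 to -0.417 percentage points, -2.00 to -0.510 with single libraries left out. The first range spans gates and thinning that change the level of the shares themselves.

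Replicate numbers were tried as a block. The correlations of same-numbered deviations were 0.369, -0.542 and -0.600. The filtered libraries of the diets carry different replicate numbers, so list form and pairing cannot be told apart in these values. Whether the numbers pair the libraries was not tested apart from list form. The replicate block gave 15 and 38 genes with the list form in activated cells and 347 and 626 in all gated B cells, and 0 and 0 in both without the list form (101 and 312 at an unadjusted p under 0.05, edgeR).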

Other observations

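Further genes of cholesterol metabolism were looked up after the values of Idi1, Fdps and Abca1 had been seen, so they are not independent of them. In all gated B cells Sqle, which makes squalene epoxide, was 7.28, 8.01 and 6.76 CPM on ND and 3.05, 2.93 and 3.995 CPM on MCDHFD. All 3 MCDHFD libraries were lower than any ND library (log2 -1.22, edgeR adjusted p = 0.0135). In activated cells Sqle had log2 -1.12 and was not called (edgeR adjusted p = 0.539). Idi1 (-1.22) and Fdps (-1.15) were lower and Abca1 (0.93) higher in all gated B cells too. Insig1 and Abcg1 were not called in either set of cells, with log2 values in activated cells of -0.55 and 0.62.

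Other glucocorticoid-responsive genes did not pass with Fkbp5 in activated cells. Ddit4 had log2 0.99 (edgeR adjusted p = 0.0754) and Tsc22d3 0.70 (edgeR adjusted p = 0.242), with a median of 0.35 over the 10 tested genes of the list. Of 13 heat shock and dissociation genes none was called by diet, and Hspa1b had log2 -2.77 (edgeR adjusted p = 0.0521).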
